A study of Hordeum vulgare with 18 samples.

Results

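Golden Promise (GP) is a European spring barley. Its response to low nitrate supply was read from the 3 leaf libraries titled GP LN set against the 3 titled GP HN, which are 6 of the 18 libraries of the series. LN plants had 0.5 mM nitrate and HN plants 5 mM, and all of them carried the wild-type GP genotype with no transgene or other treatment in the LN labels. The HN labels add labelling with a heavy nitrogen isotope over the day before sampling, which the LN labels do not mention. The study's methods describe such labelling for both supplies. The tissue label reads aerial, and the study's methods describe the leaf of 1 or 2 plants per sample at 14 days after sowing. The LN libraries carry the replicate numbers 1, 2 and 3 and the HN libraries 1, 2 and 4. The labels date replicates 1 and 2 to 14 and 21 days after a planting in October, and, under the same planting date, replicate 3 to 22 March and replicate 4 to 12 April of the following year, while HN replicate 1 has only an age of 14 days. Replicate numbers 3 and 4 each occur in GP under 1 supply only, so that in the spring pair nitrate supply and harvest cannot be told apart. The other 12 libraries come from Laanaceur (M4) and Oussama (M5), varieties from Morocco. Of the 3 M4 libraries titled HN, replicate 4 has a nitrate label of 0.5 mM. The M4 and M5 libraries entered the same fit and serve here for comparison. In the fit they add to the estimate of the spread and, through the replicate terms, to the fitted differences in GP.

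Nitrate is both the main nitrogen source of crops on aerated soils and a signal that regulates transcription. It enters cells through low- and high-affinity carriers such as the NRT2 family, is moved between root, shoot and vacuole by further carriers and anion channels, and is reduced and built into amino acids. Leaves short of nitrogen are known to break down chlorophyll and protein and to export the nitrogen, a program shared with senescence, and the carbon skeletons, iron and phosphate used with nitrogen are adjusted along with it. In leaf samples of this kind, fewer cells of a type and less RNA per cell cannot be told apart.

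Both replicate 1 libraries held transcripts of other genotypes. A set of 14 genes had a mean above 5 CPM (reads of a gene relative to all reads on genes in the library, scaled by TMM) in M4 and under 0.05 CPM in M5 and in GP replicates 2 to 4, and 19 genes had the same pattern for M5. In GP LN replicate 1 the M5 genes summed to 45.9% of their level in M5, and the M4 genes to 0.0731% of theirs. In GP HN replicate 1 the M4 genes reached 16.2% of their M4 level and the M5 genes 0.0735%. The rule itself keeps the other 4 GP libraries near 0 (at most 0.0824%), so that their values say nothing of their own purity, while the replicate 1 libraries had no part in it. All 16 M5 genes that passed the filter on low counts had a positive fitted value under LN and all 14 M4 genes a negative one, so that results are given with and without both replicate 1 libraries. None of these genes is among the 52 named genes (0 of 52). The limit of 0.05 CPM in GP replicates 2 to 4 largely fixed this in advance. This count does not show that named genes with unlike levels in the genotypes were unaffected in the replicate 1 libraries. The 6 GP libraries held 15623172 to 28720490 reads, of which 12138425 to 21993841 lay on genes. Leaf markers could not be checked, since the sources used here describe only the genes of the study's lists.

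**Figure D1:**
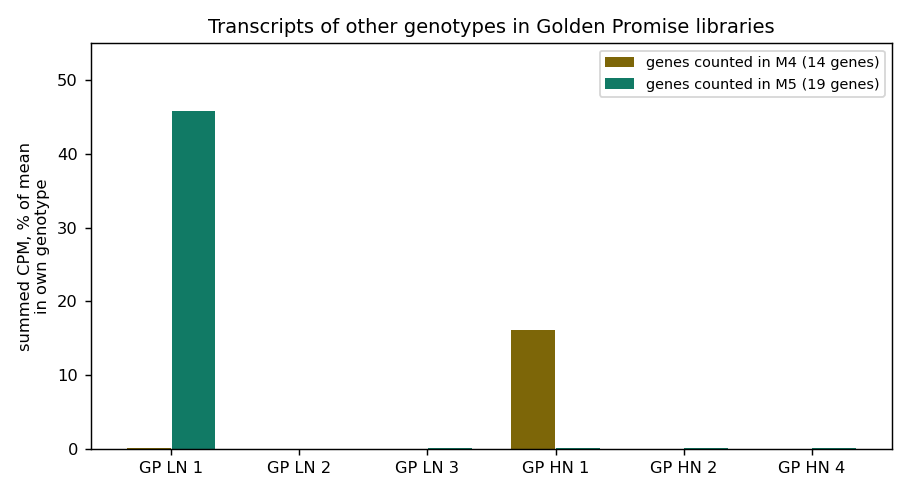
Summed level of genes counted in M4 alone (14 genes) or M5 alone (19 genes) in each GP library, as a percentage of the mean sum in their own genotype. GP LN replicate 1 stands at 45.9% for the M5 genes and GP HN replicate 1 at 16.2% for the M4 genes, and the other bars do not rise visibly above 0, which in replicates 2 to 4 follows from how the genes were chosen.

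Across 19021 tested genes, 0 were called between LN and HN at an adjusted p under 0.05 by edgeR's quasi-likelihood test with a term for the replicate number (0%). At an unadjusted p under 0.05, 518 genes were higher under LN (2.72%) and 528 were lower (2.78%), 5.50% together. Their median log2 fold change (log2 FC, LN over HN) was 0.78 for the higher genes and -0.70 for the lower ones. Of the 518 higher genes, 378 were higher in all 3 harvest pairs, and of the 528 lower genes 445 were lower in all 3. Over all tested genes, 15.8% were higher and 17.5% lower in all 3 pairs. The same libraries gave the p-values and the pairs, so that these counts are a description and no separate evidence. The harvest pairs are LN and HN replicate 1, LN and HN replicate 2, and the spring pair of LN replicate 3 with HN replicate 4. Other tools made few calls on the same counts. DESeq2 called 33 genes (0.173%), the edgeR likelihood ratio test 21 (0.110%) and limma-voom 5 (0.0263%). Without the term for the replicate number, edgeR's quasi-likelihood test called 5 genes (0.0263%), all lower under LN, which were HORVU2Hr1G013450, HORVU3Hr1G059130, HORVU3Hr1G064080, HORVU3Hr1G082580 and HORVU3Hr1G108680.

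Leaving out both replicate 1 libraries also gave 0 calls among 18952 genes (0%), with 275 genes higher (1.45%) and 174 lower (0.918%) at an unadjusted p under 0.05 in edgeR's test. Only part of each set was shared. Of the higher genes, 149 were common to both fits, 28.8% of the 518 and 54.2% of the 275. Of the lower genes, 91 were common, 17.2% of the 528 and 52.3% of the 174. The annotated genes below come from 2 lists, 19 genes that the study listed as higher under LN and 18 it listed as lower. They were listed for GP together with M4 or with M5, except HORVU2Hr1G007350 of the raised list, which was listed for M4 and M5 and marked as not significant in GP. Since these libraries chose them, their counts describe the lists and are no independent evidence of direction.

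All 18 genes of the lowered list were lower under LN in GP, and every LN library lay below every HN library in 18 of 18, as in 9.00% of all tested genes. Each was lower in 3 of 3 harvest pairs (17.5% of all genes). An unadjusted p under 0.05 was reached by 16 of 18 in edgeR's test and an adjusted p under 0.05 by 0. The median log2 FC of the list was -1.71, against 0.01 over all genes tested, and it was -1.66 without both replicate 1 libraries, where 14 of 18 had an unadjusted p under 0.05. Of the 4 largest differences, 3 were in transcription factors of the basic helix-loop-helix (bHLH) family, DNA-binding proteins that act as dimers, and 1 was in an F-box gene.

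**Figure D2:**
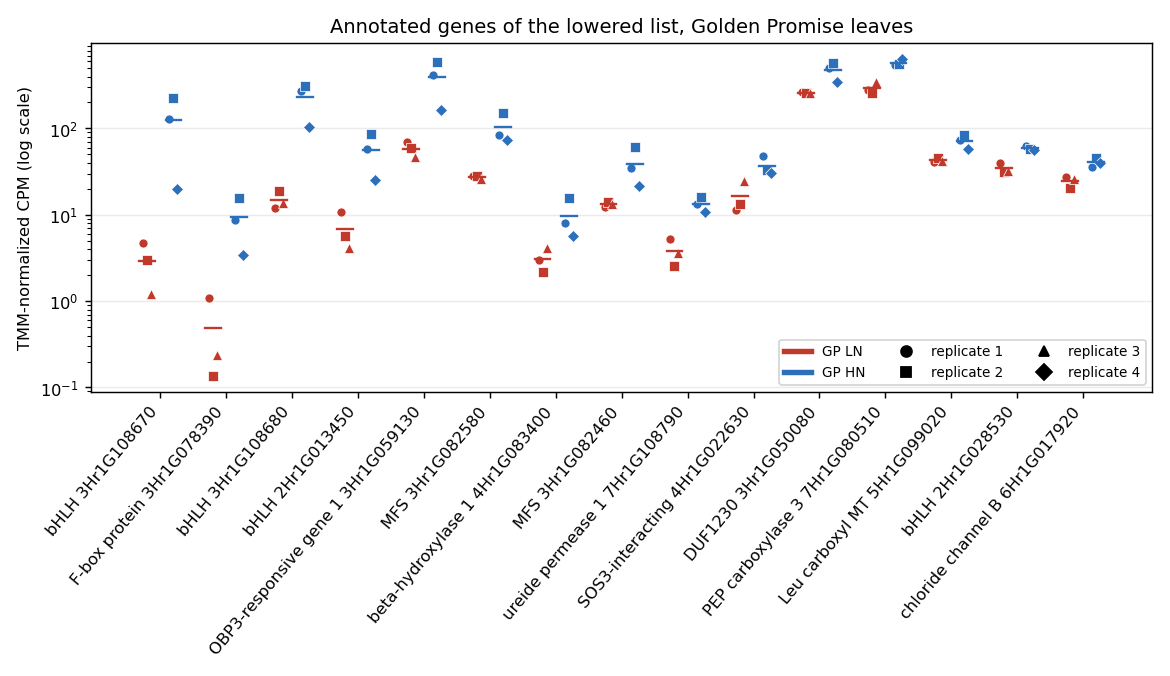
TMM-normalized CPM of the annotated genes of the lowered list in each GP library on a log axis, LN in red left of HN in blue, with horizontal lines at the group means of 3 libraries. No LN point reaches an HN point of the same gene, and HN replicate 4 (diamonds) is the lowest HN library of most genes, as for HORVU3Hr1G108670 at 19.8 CPM.

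HORVU3Hr1G108680, a bHLH gene, had 12.1, 19.0 and 13.6 CPM in LN replicates 1, 2 and 3, against 271.8, 312.4 and 105.2 CPM in HN replicates 1, 2 and 4. Its neighbor HORVU3Hr1G108670, also a bHLH gene, had 4.68, 2.98 and 1.20 CPM in the same LN libraries, against 127.5, 224.4 and 19.8 CPM under HN. The bHLH gene HORVU2Hr1G013450, on another chromosome, had 10.8, 5.70 and 4.17 CPM under LN, against 57.3, 85.3 and 25.4 CPM under HN. In all 3 genes the HN libraries were far above the LN libraries and HN replicate 4 was the lowest of its group. The fitted log2 FC was -3.97 for HORVU3Hr1G108680 (SE 0.58), -5.92 for HORVU3Hr1G108670 (SE 0.87) and -3.22 for HORVU2Hr1G013450 (SE 0.46), each with an adjusted p of 0.0706 in edgeR's quasi-likelihood test. Without both replicate 1 libraries the values were -3.71, -6.84 and -3.76. The fourth bHLH gene, HORVU2Hr1G028530, differed less, with 39.5, 31.2 and 32.6 CPM under LN and 62.5, 58.3 and 55.7 CPM under HN. Its HN libraries lay close together in autumn and spring, unlike those of the other bHLH genes, and its log2 FC was -0.72 (SE 0.18).

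Carriers made up 4 genes of the lowered list. HORVU3Hr1G082580, a carrier of the major facilitator superfamily (MFS), the large family that also holds nitrate and sugar transporters, had 28.5, 28.2 and 26.3 CPM under LN, against 84.3, 151.8 and 74.5 CPM under HN. Its LN libraries were nearly equal across the harvests and the spread lay in the HN libraries. The log2 FC was -1.85 (SE 0.26, adjusted p = 0.0706 in edgeR's test) and -2.02 without replicate 1. The MFS gene HORVU3Hr1G082460 had 12.2, 14.1 and 13.3 CPM under LN and 34.8, 60.7 and 21.5 CPM under HN (log2 FC -1.63, SE 0.37). Ureide permease 1 (HORVU7Hr1G108790), a carrier of ureides, nitrogen-rich compounds such as allantoin, had 5.18, 2.58 and 3.61 CPM under LN and 13.4, 16.2 and 10.8 CPM under HN (log2 FC -1.41, SE 0.65). Chloride channel B (HORVU6Hr1G017920) belongs to the CLC family of anion carriers, some of which move nitrate in Arabidopsis. It had 27.1, 20.3 and 26.1 CPM under LN and 36.0, 45.7 and 39.7 CPM under HN, with a log2 FC of -0.61 (SE 0.31) and an unadjusted p of 0.0739 in edgeR's test.

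Signaling and protein turnover genes differed over a wide range of sizes. HORVU3Hr1G078390, an F-box protein of the kind that selects targets for ubiquitin ligases, had 1.10, 0.136 and 0.24 CPM under LN and 8.67, 15.9 and 3.45 CPM under HN, at a log2 FC of -4.60 (SE 0.86). LN replicates 2 and 3 held only 3 reads each of this gene. HORVU5Hr1G099020, a leucine carboxyl methyltransferase, had 40.8, 45.0 and 42.2 CPM under LN and 74.1, 83.2 and 58.6 CPM under HN. The difference was small but the LN libraries were tight, with a log2 FC of -0.80 (SE 0.15) and an adjusted p of 0.257 in edgeR's test. HORVU4Hr1G022630, annotated as SOS3-interacting protein 1, a protein kinase partner of calcium sensors in Arabidopsis, had 11.2, 13.3 and 24.8 CPM under LN and 48.1, 33.3 and 30.1 CPM under HN. It shrank most among the annotated lowered genes when replicate 1 was left out, with a log2 FC of -1.08 (SE 0.58) in all libraries and -0.41 (SE 0.71) without replicate 1.

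Metabolic genes of the lowered list kept the same order of groups. Phosphoenolpyruvate carboxylase 3 (HORVU7Hr1G080510) makes oxaloacetate, a carbon skeleton for amino acids. It had 282.1, 261.0 and 341.3 CPM under LN and 547.4, 556.6 and 634.2 CPM under HN, a log2 FC of -0.87 (SE 0.31), and it was the only lowered gene whose HN replicate 4 was the highest HN library. Beta-hydroxylase 1 (HORVU4Hr1G083400), which hydroxylates carotenoids in Arabidopsis, had 2.98, 2.17 and 4.17 CPM under LN and 8.11, 15.6 and 5.70 CPM under HN, a log2 FC of -1.79 (SE 0.40).

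Of the 5 lowered genes with no certain function, 3 had a log2 FC under -1. HORVU3Hr1G059130 carries the annotation OBP3-responsive gene 1, after an Arabidopsis DOF transcription factor. It had 68.8, 58.7 and 47.1 CPM under LN, against 420.8, 586.2 and 164.6 CPM under HN (log2 FC -2.70, SE 0.44, adjusted p = 0.118 in edgeR's test). HORVU3Hr1G064080, with no annotation, had 69.4, 76.9 and 79.9 CPM under LN and 351.0, 315.2 and 162.5 CPM under HN (log2 FC -1.88, SE 0.31, adjusted p = 0.126 in edgeR's test). HORVU4Hr1G009380, also with no annotation, had 7.80, 7.37 and 9.45 CPM under LN and 39.6, 64.8 and 18.9 CPM under HN (log2 FC -2.43, SE 0.47). In these genes the LN libraries lay close together and, as in the bHLH genes, HN replicate 4 was the lowest HN library. The DUF1230 gene HORVU3Hr1G050080 and the unannotated HORVU4Hr1G011250 had log2 FC of -0.88 (SE 0.19) and -0.97 (SE 0.30).

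The lowered list differed between the harvests in size but not in sign. Its median difference (LN minus HN in log2 CPM, with 0.5 CPM added) was -1.51 in replicate 1, -2.24 in replicate 2 and -0.99 in the spring pair, against 0.01, 0.00 and -0.01 over all genes. HN replicate 4 was the lowest HN library for 16 of 18 genes and HN replicate 2 the highest for 14 of 18. The spring pair had the smallest difference in 13 of 18 genes. Leaving out HN replicate 4 alone gave 7 calls in edgeR's quasi-likelihood test, 6 lower and 1 higher, and the 6 lower ones were all from this list.

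**Figure D3:**
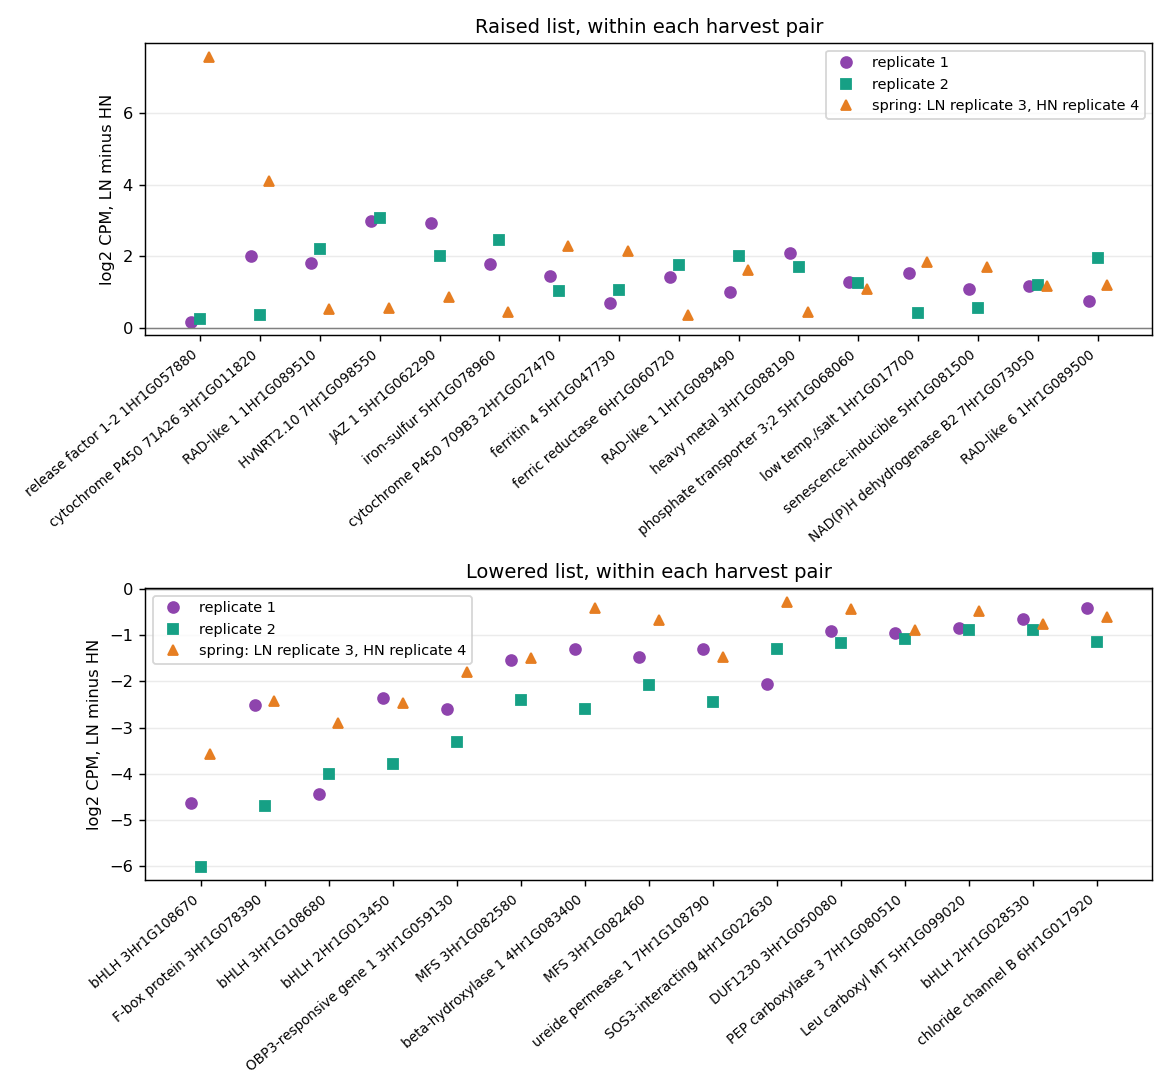
Difference in log2 CPM (0.5 CPM added), LN minus HN, of the annotated genes of the raised list (top) and the lowered list (bottom) within replicate 1, replicate 2 and the spring pair. Every lowered gene is below 0 in each pair, and the spring pair (triangles) is nearest to 0 for most of them.

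The response of these genes in GP was also set against that in M4. The lowered bHLH gene HORVU2Hr1G013450 averaged 3.82 CPM under LN and 3.22 CPM under HN in M4, below the mean of 6.88 CPM in GP under LN, and 5.37 CPM under LN and 67.1 CPM under HN in M5. The response in GP minus that in M4 was -3.39 for this gene (SE 0.65), -2.84 for HORVU3Hr1G059130 (SE 0.58) and -2.21 for HORVU3Hr1G082580 (SE 0.36), on the log2 scale. For the last of these, the adjusted p was 0.745 in edgeR's quasi-likelihood test. That test called 0 of the 19021 differences (0%), while the likelihood ratio test and DESeq2 called 4 each, among them these 3 genes. At an unadjusted p under 0.05 in edgeR's quasi-likelihood test, GP differed from M4 in 13 of 18 lowered genes, against 2.37% of all genes, and from M5 in 3 of 18, against 4.04% of all genes. The study's selection of genes lowered in GP together with M5 fixed part of this contrast. Without the M4 HN library labelled 0.5 mM, the differences of the 3 named genes were -3.61, -3.17 and -2.43, and 13 of 18 lowered genes again had an unadjusted p under 0.05, against 2.39% of all genes. The quasi-likelihood test still called 0 differences, the likelihood ratio test 8 and DESeq2 7.

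Among genes of the raised list, all 19 had a positive log2 FC in GP, with a median of 1.27, and 1.22 without both replicate 1 libraries. LN libraries lay above every HN library in 17 of 19 (7.22% of all genes), and 18 of 19 were higher in 3 of 3 harvest pairs (15.8% of all genes). An unadjusted p under 0.05 in edgeR's test was reached by 15 of 19, by 7 of 19 without replicate 1, and an adjusted p under 0.05 by 0. HORVU2Hr1G007350, with no annotation, was the gene that was not higher in every pair, and it and HORVU1Hr1G057880 were the 2 whose groups overlapped. HORVU2Hr1G007350 stood at 120.3, 165.9 and 168.1 CPM under LN and 132.4, 139.9 and 158.1 CPM under HN. Its log2 FC was 0.07 (SE 0.14) and 0.17 without replicate 1. Without both replicate 1 libraries, which leaves fewer libraries to compare, the groups did not overlap in 19 of 19 genes, against 14.9% of all genes.

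**Figure D4:**
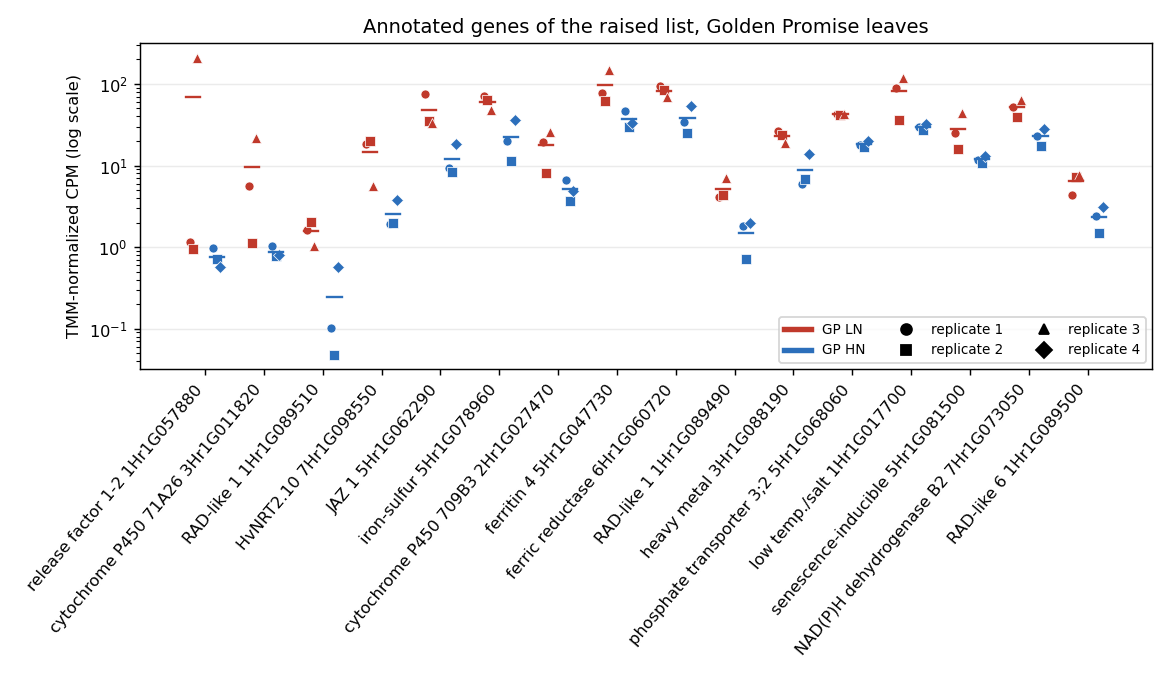
TMM-normalized CPM of the annotated genes of the raised list in each GP library on a log axis, LN in red left of HN in blue, with horizontal lines at the group means of 3 libraries. LN replicate 3 (triangles) is the highest LN library for ferritin 4 and the cytochrome P450 genes and the lowest for HvNRT2.10, at 5.69 CPM.

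The nitrate transporter HvNRT2.10 (HORVU7Hr1G098550), of a family of high-affinity nitrate carriers, had 18.4, 20.2 and 5.69 CPM under LN, against 1.90, 1.97 and 3.74 CPM under HN. The groups did not overlap, but the spring libraries lay closer together than the autumn ones. The difference in log2 CPM was 2.98 in replicate 1, 3.07 in replicate 2 and 0.55 in the spring pair. Its fitted log2 FC was 2.49 (SE 0.86, adjusted p = 0.833 in edgeR's test) and 1.98 (SE 1.15) without replicate 1. Jasmonate-zim-domain protein 1 (HORVU5Hr1G062290), a repressor of jasmonate signaling, had the same kind of pattern, with 75.4, 34.9 and 33.6 CPM under LN and 9.44, 8.32 and 18.5 CPM under HN (log2 FC 1.96, SE 0.82, and 1.24 without replicate 1). So did HORVU3Hr1G088190, a heavy metal transport and detoxification protein, with 26.7, 23.5 and 18.7 CPM under LN and 5.95, 6.92 and 13.7 CPM under HN (log2 FC 1.24, SE 0.55, and 0.69 without replicate 1). In each of these 3 genes HN replicate 4 was the highest HN library and LN replicate 3 the lowest LN library.

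A phosphate carrier and a respiratory enzyme gave nearly the same difference in each harvest. HORVU5Hr1G068060, annotated as phosphate transporter 3;2 after a family of mitochondrial phosphate carriers, had 43.3, 41.1 and 42.5 CPM under LN, against 17.7, 16.98 and 19.8 CPM under HN. Its difference was 1.27, 1.25 and 1.08 in replicate 1, replicate 2 and the spring pair, and its log2 FC 1.22 (SE 0.43, unadjusted p = 0.0149 in edgeR's test). NAD(P)H dehydrogenase B2 (HORVU7Hr1G073050), an alternative dehydrogenase of the mitochondrial respiratory chain in Arabidopsis, had differences of 1.17, 1.18 and 1.17. Its levels were 52.3, 39.8 and 64.1 CPM under LN and 23.0, 17.3 and 28.1 CPM under HN.

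Among the raised genes, the smallest p belonged to genes of iron handling. The ferric reductase gene HORVU6Hr1G060720, of the cytochrome b561 family of membrane electron carriers, had 93.6, 84.8 and 68.9 CPM under LN, against 34.5, 25.1 and 53.6 CPM under HN. HORVU5Hr1G078960, which encodes an iron-sulfur cluster binding protein, had 70.5, 63.6 and 48.2 CPM under LN, against 20.1, 11.2 and 35.7 CPM under HN. In both genes the LN group lay above the HN group and the spring libraries were nearest to each other. The log2 FC was 1.27 for the ferric reductase (SE 0.22, adjusted p = 0.158 in edgeR's test) and 1.69 for the iron-sulfur protein (SE 0.35, adjusted p = 0.453), and 1.16 and 1.62 without replicate 1. Ferritin 4 (HORVU5Hr1G047730), an iron storage protein of plastids, had its largest difference in spring, with 76.3, 62.3 and 149.9 CPM under LN and 47.2, 30.0 and 33.6 CPM under HN. The differences were 0.69, 1.04 and 2.14 in replicate 1, replicate 2 and the spring pair, and the log2 FC was 1.43 (SE 0.45) and 1.94 without replicate 1. The ferric reductase was the 1 higher gene called when HN replicate 4 was left out, and both it and the iron-sulfur gene were called by the likelihood ratio test and by DESeq2.

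Senescence and stress genes of the raised list were highest in the spring LN library. HORVU5Hr1G081500, annotated as a senescence-inducible chloroplast protein, had 25.1, 16.0 and 43.7 CPM under LN and 11.7, 10.8 and 13.1 CPM under HN (log2 FC 1.12, SE 0.30). The low temperature and salt responsive gene HORVU1Hr1G017700 had 88.1, 36.5 and 118.3 CPM under LN and 30.0, 27.3 and 32.7 CPM under HN (log2 FC 1.18, SE 0.33). In both, LN replicate 2 stood only a little above the HN libraries, and the HN libraries were tight. Cytochrome P450 enzymes are heme-containing monooxygenases of secondary metabolism and hormone turnover. The cytochrome P450 gene HORVU2Hr1G027470 had 19.2, 8.01 and 26.0 CPM under LN and 6.72, 3.65 and 4.89 CPM under HN (log2 FC 1.59, SE 0.58). Another, HORVU3Hr1G011820, had 5.64, 1.13 and 22.0 CPM under LN and 1.03, 0.769 and 0.806 CPM under HN (log2 FC 2.94, SE 0.96), so that most of its group mean came from LN replicate 3. LN replicate 3 was the highest LN library for 12 of the 19 raised genes.

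The largest fold of the raised list rested on 1 library. HORVU1Hr1G057880, annotated as eukaryotic release factor 1-2, a translation termination factor, had 1.15, 0.95 and 206.6 CPM under LN and 0.975, 0.721 and 0.575 CPM under HN. Its log2 FC was 4.12 (SE 1.90), and outside LN replicate 3 all GP libraries lay between 0.575 and 1.15 CPM. The within-pair differences were 0.16, 0.25 and 7.59.

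The raised list also held 3 genes of the RADIALIS-like (RAD-like) group, small MYB-type proteins, which carry consecutive IDs on chromosome 1H. HORVU1Hr1G089490 had 4.08, 4.39 and 6.97 CPM under LN and 1.80, 0.721 and 1.96 CPM under HN (log2 FC 1.27, SE 0.63). HORVU1Hr1G089500 had 4.40, 7.19 and 7.69 CPM under LN and 2.41, 1.49 and 3.11 CPM under HN (log2 FC 0.92, SE 0.82). HORVU1Hr1G089510 was the lowest in reads, with 35, 45 and 13 reads under LN and 2, 1 and 10 under HN (log2 FC 2.55, SE 1.17). All 3 genes were separated by supply in each harvest, and reads of near-identical copies may have been lost because reads that map to several places were not counted. HORVU1Hr1G089510 alone of the 3 reached an unadjusted p under 0.05 in edgeR's test (0.0489), and without replicate 1 its p was 0.171 at a log2 FC of 1.94.

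**Figure D5:**
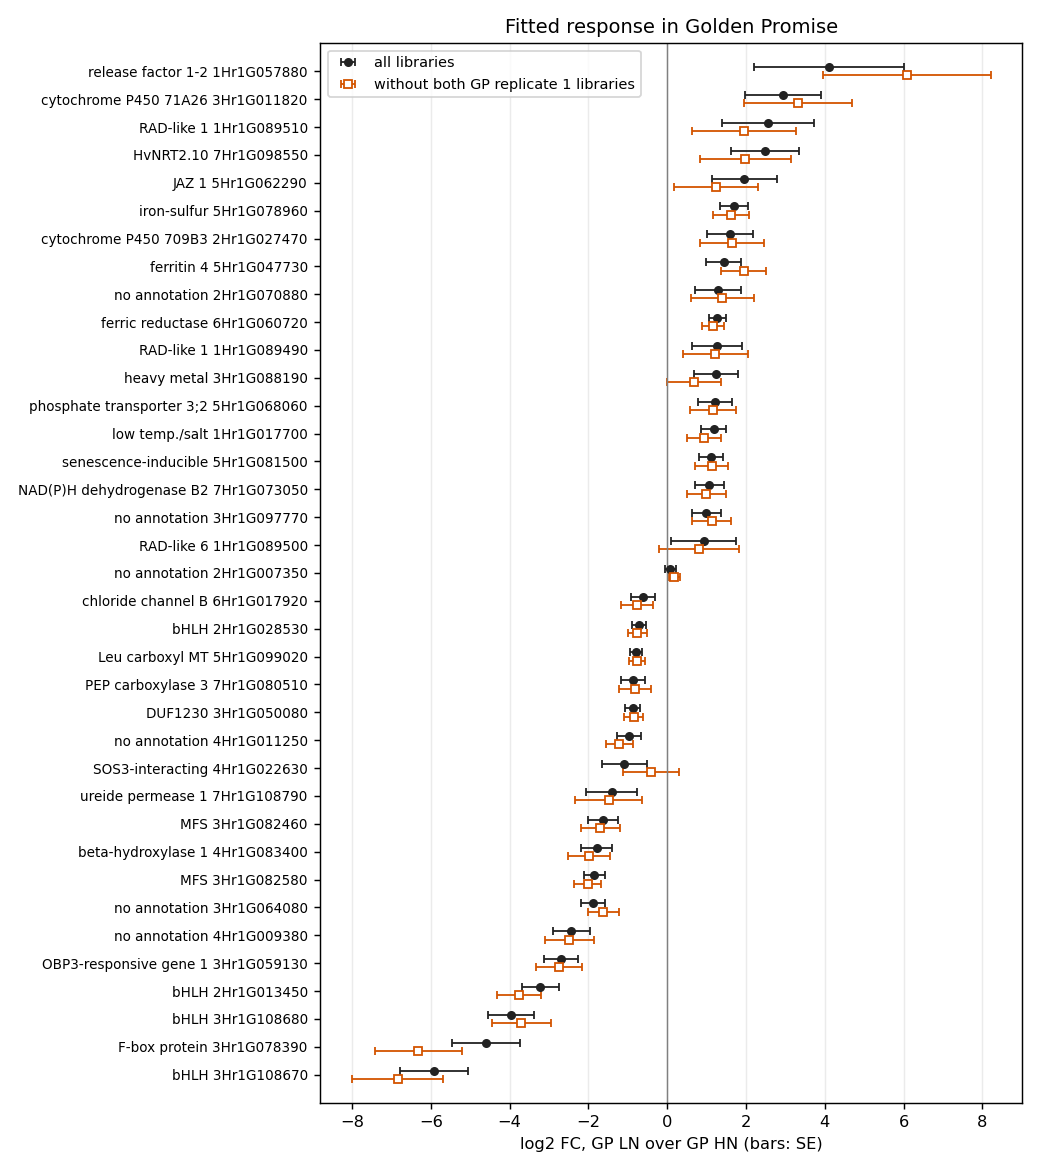
Fitted log2 FC (LN over HN) with SE for the 37 genes of both lists, from all libraries (filled circles) and without both GP replicate 1 libraries (open squares). Signs are the same in both fits for all 37 genes, and HORVU3Hr1G078390 and HORVU1Hr1G057880 change most without replicate 1, to -6.32 and 6.08.

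Outside the lists, the gene with the smallest p was HORVU2Hr1G114070, which no source used here annotates. It had 2, 1 and 2 reads in LN replicates 1, 2 and 3, against 155, 314 and 30 reads in HN replicates 1, 2 and 4. In CPM it stood at 0.0917, 0.0452 and 0.16 under LN and 7.95, 15.1 and 1.73 under HN. The gene was close to the detection limit in every LN library and counted in every HN library. The ratio of LN to HN reads per total on genes was 0.0104, with a 95% exact interval of 0.00336 to 0.0244 for counting error only, and the adjusted p was 0.0727 in edgeR's quasi-likelihood test. In M4 the gene averaged 0 CPM under LN and 0.0165 CPM under HN, and in M5 0 and 0.619 CPM.

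Higher genes outside the lists were ranked by p among those with a mean of at least 1 CPM and groups that did not overlap. Those with the smallest p had small differences. HORVU4Hr1G002510 had 40.7, 48.8 and 51.7 CPM under LN, against 29.1, 30.8 and 31.8 CPM under HN. The groups were well apart and each harvest pair gave a similar difference, of 0.48, 0.66 and 0.69. Its log2 FC was 0.60 (SE 0.12, adjusted p = 0.362 in edgeR's test) and 0.68 without replicate 1. The other 7 higher genes chosen in this way had log2 FC between 0.66 (HORVU6Hr1G018520) and 0.92 (HORVU4Hr1G080460). Without replicate 1 these 2 genes stood at 0.62 and 0.76. Most of them differed least in spring, as HORVU4Hr1G080460 did, with 1.15, 1.17 and 0.14 in replicate 1, replicate 2 and the spring pair. Without replicate 1, HORVU0Hr1G005160 came up with a log2 FC of 2.84, from 9.00 and 49.0 CPM in LN replicates 2 and 3 against 2.93 and 1.67 CPM in HN replicates 2 and 4. With replicate 1 its libraries at 6.42 CPM under LN and 5.18 CPM under HN brought it to 2.02 (SE 0.55).

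Amino acid genes gave little. Of 7 lysine genes and 10 genes of branched-chain amino acids (BCAA), 0 were called, and 1 of 7 and 0 of 10 had an unadjusted p under 0.05 in edgeR's test, against 5.50% of all genes. That gene, HORVU7Hr1G085930, encodes an aspartate kinase, the entry enzyme of the lysine pathway. It had 1.15, 2.62 and 2.96 CPM under LN and 4.57, 4.18 and 3.97 CPM under HN, and LN replicate 1, the library with M5 transcripts, was the lowest. The gene averaged 0 CPM in M5 under both supplies. Its log2 FC was -0.99 (SE 0.38) and -0.44 without replicate 1. The BCAA transaminase HORVU3Hr1G032400 had 80.9, 4.43 and 5.45 CPM under LN and 27.3, 5.67 and 3.51 CPM under HN, so that both replicate 1 libraries stood far above the rest of their group. It averaged 112.3 CPM under LN and 106.4 CPM under HN in M4, and 101.0 and 133.6 CPM in M5. Its log2 FC of 1.11 (SE 0.83) became -0.01 without replicate 1. The lysine histidine transporter HORVU7Hr1G074640, a carrier of amino acids, averaged 36.8 CPM under LN (SD 22.1) and 16.5 CPM under HN (SD 3.39). It had 27.1, 21.2 and 62.0 CPM under LN and 20.4, 14.3 and 14.8 CPM under HN. The groups did not overlap, but LN replicate 2 lay close to HN replicate 1. Its log2 FC was 1.02 (SE 0.62, unadjusted p = 0.123 in edgeR's test).

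Genes at an unadjusted p under 0.05 in the same direction lay side by side in 5 runs of at least 3 neighboring tested genes, and in 1 run without both replicate 1 libraries. The run of 4 genes on 1H rested on LN replicate 1, with HORVU1Hr1G067730 at 14.5, 0 and 0 CPM in LN replicates 1, 2 and 3 and 0, 0 and 0.0575 CPM in HN replicates 1, 2 and 4. In M5 this gene averaged 23.1 CPM under LN and 13.2 CPM under HN, and its 3 neighbors were likewise counted in GP almost only in LN replicate 1. The run on 3H held both bHLH genes and HORVU3Hr1G108690, which had 9.91, 11.8 and 13.4 CPM under LN and 15.7, 15.5 and 16.97 CPM under HN (log2 FC -0.44, SE 0.20). This gene differed far less than its neighbors. Without replicate 1 its log2 FC was -0.32 with an unadjusted p of 0.247 in edgeR's test, so that the run on 3H no longer held.

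The 3 remaining runs had the same sign with and without replicate 1, but without it the 3 genes on 2H and the 3 on 7H no longer reached an unadjusted p under 0.05. On 2H, HORVU2Hr1G086920 had 27.2, 31.3 and 36.5 CPM under LN and 60.2, 60.6 and 42.3 CPM under HN (log2 FC -0.81, SE 0.33), and both neighbors were lower as well. On 4H, HORVU4Hr1G005440 had 4.27, 7.10 and 4.41 CPM under LN and 2.62, 1.39 and 1.90 CPM under HN (log2 FC 1.56, SE 0.51), and the median of its run of 3 was 1.33. On 7H, HORVU7Hr1G041230 had 27.4, 10.6 and 5.53 CPM under LN and 0.564, 1.35 and 4.78 CPM under HN. The spring libraries of this gene were almost equal, while the autumn ones were far apart. The median of the 7H run was 2.99, and 1.33 without replicate 1.

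An unadjusted p under 0.05 was more frequent among genes whose level differed between genotypes. Among 13661 genes with mean levels in M4 and M5 within 0.5 log2 units of that in GP replicates 2 to 4, 567 had an unadjusted p under 0.05 in edgeR's test, 4.15% (95% exact interval 3.82 to 4.50). Among the 5360 genes that differed by more, 479 did, 8.94% (8.19 to 9.73). Without both replicate 1 libraries the shares were 1.51% and 4.56%. The GP level averaged both supplies, so a gene that differs between LN and HN can leave the first set for that reason alone, and the shares are a description. Their intervals cover counting of genes, which are not independent replicates.

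Replicates were further apart under LN than under HN when all GP libraries were used. The variance of log2 CPM was larger under LN in 62.6% of genes, with a median of 0.0438 under LN and 0.0263 under HN, and the common biological coefficient of variation in edgeR was 28.7% under LN and 16.1% under HN. The share was 53.0% without both replicate 1 libraries, with medians of 0.0202 under LN and 0.0163 under HN. Without both spring libraries it was 54.5%, with medians of 0.0262 and 0.0205. The coefficient of variation was computed with all GP libraries only. Correlations of log2 CPM across the 19021 genes, which are not independent replicates, were 0.952 to 0.975 between LN libraries and 0.983 to 0.987 between HN libraries. The lowest was that of LN replicates 1 and 3.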

How the data were processed

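Leaf RNA of 6 GP libraries, and of 12 M4 and M5 libraries used in the same fit, was analysed. For these, the authors sequenced stranded poly(A) libraries from one end, ran Trimmomatic 0.36 for trimming and sortMeRNA 2.1 against rRNA, and used STAR 2.7.3a with the Morex genome for mapping and counting. What they deposited are raw counts, not normalized, for 43050 genes, of which the reverse-strand column was used. Reads outside genes took 5.12 to 5.65% of a GP library, reads mapped to several places 15.3 to 16.0% and unmapped reads 1.66 to 2.53%. These classes stayed out of library sizes and tests. Before TMM scaling, a CPM of 1 stands for about 12.1 to 22.0 reads in GP.

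The fit used edgeR 4.0.16 (R 4.3.3) after TMM scaling, on genes above 1 CPM in at least 3 of 18 libraries, with terms for group (6) and replicate number (4), the quasi-likelihood test and Benjamini-Hochberg adjustment at 0.05. Each SE was obtained by dividing the absolute log2 FC by the root of its F statistic. Replicate numbers 3 and 4 each occur in GP under 1 supply only. The M4 and M5 libraries thus helped to set the replicate terms, and through them the fitted log2 FC in GP. Without these terms, HORVU1Hr1G089500 had a log2 FC of 1.46 in place of 0.92. HORVU5Hr1G078960 had 1.45 in place of 1.69. The replicate block follows the study's methods and the harvest days in the labels. Deviations from group means correlated at 0.308 and 0.119 for the same-numbered GP pairs, and at a median of 0.00209 over 34 same-numbered pairs of all groups. Differently numbered pairs reached 0.235 in GP (LN replicate 2 with HN replicate 4) and had a median of 0.00870 over 101 pairs, so the correlations do not set same-numbered samples apart. The labels do not say that samples are separate plantings, so p-values measure the spread between these samples. With 3 samples against 3, an exact permutation test of a single gene cannot go below p = 0.1. DESeq2 1.42.0 and limma 3.58.1 served as alternatives. Scripts were tested on simulated data.

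The named genes are those of the study's raised and lowered lists, the 10 higher and 10 lower genes with the smallest p among genes with at least 1 CPM and groups that do not overlap, genes called without the replicate block, the 5 smallest p in each direction without replicate 1, and the smallest p of the lysine and BCAA genes. Members and lists were chosen with earlier results of these data known.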

Additional observations from a re-analysis of the deposited data

How the results depend on the processing

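Of 1344 log2 FC values of the 52 named genes under 26 other settings, 1343 kept their direction. The exception was HORVU2Hr1G007350, whose log2 FC ranged from -0.0412 (without LN replicate 2) to 0.236 without single libraries. The named genes were chosen on these same libraries, by small p or by the study's lists. A kept direction was thus largely fixed by the choice and is no independent evidence. In 153 values, of 35 genes, the adjusted p fell under 0.05, most often with the GP libraries alone and the replicate block or with another test. The count of called genes was 0 in the fit reported. It was 5 without the replicate block, 6 with a block of 2 harvest seasons, 98 with only GP libraries and the replicate block, a fit with 1 residual degree of freedom, against 0 with only GP libraries and no block (4 residual degrees of freedom), 21 with the likelihood ratio test, 33 with DESeq2, 5 with limma-voom, and 12 with the likelihood ratio test without both replicate 1 libraries. It was 5 without the low-count filter, with a filter on 3 of 6 GP libraries, with a filter on every library of a GP group, and with either-strand counts. With only GP libraries and the block, LN replicate 3 and HN replicate 4 each have a term of their own. The 98 calls thus rest on replicates 1 and 2, and both replicate 1 libraries held transcripts of other genotypes. Leaving out single libraries gave 0 to 7 calls, the 7 without HN replicate 4.

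Higher genes at an unadjusted p under 0.05 in edgeR numbered 837 without the replicate block, 827 with only GP libraries and no block, 945 with only GP libraries and the block, 275 without both replicate 1 libraries and 325 by the likelihood ratio test without them. Lower genes numbered 808, 1026, 1171, 174 and 181 in the same settings, and 154 without replicate 1 and without the block. Without single libraries the counts ranged from 243 (HN replicate 2) to 720 higher and from 238 (LN replicate 1) to 856 lower (LN replicate 3). Without HN replicate 1 the lower count was 246, and without LN replicate 1 the higher count was 299.

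Responses that differed between GP and M4 numbered 4 by the likelihood ratio test, 4 by DESeq2, 2 by the likelihood ratio test without replicate 1, and 0 to 2 without single libraries. Between GP and M5 they numbered 7 by DESeq2 and 2 by the likelihood ratio test without replicate 1. Leaving out the M4 HN library labelled 0.5 mM was chosen after seeing the data. It gave 0 calls in GP by the quasi-likelihood test, 27 by the likelihood ratio test and 45 by DESeq2, a raised-list median of 1.34, 1.33 and 1.33, 0, 8 and 7 differences between GP and M4, and 0, 0 and 11 between GP and M5.

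The median log2 FC of the raised list was 1.43 without the block, 1.41 with the season block, 1.44 and 1.46 with only GP libraries without and with the block, 1.36 without replicate 1 and the block, 1.36 without both spring libraries, 1.39 with limma-voom, 1.18 by the likelihood ratio test without replicate 1, and 1.18 to 1.58 without single libraries. The median over all genes was -0.000616 without replicate 1 and the block, -0.00268 without both spring libraries, 0.0276 with upper quartile normalization, and -0.00358 to 0.0178 without single libraries.

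Runs of neighboring genes numbered 13 without the block, 12 with the season block, 20 and 22 with only GP libraries without and with the block, 1 without replicate 1, 2 without replicate 1 and the block, 8 without both spring libraries, 9 with the likelihood ratio test, 2 with that test without replicate 1, and 0 to 11 without single libraries. With a limit of 1 log2 unit, 4.57% of genes alike in the genotypes and 12.2% of genes that differ had an unadjusted p under 0.05. Without replicate 1 these shares at the limit of 0.5 were 1.51% and 4.56%, and the variance was larger under LN in 53.0% of genes. The causes of these changes were not tested. Few reads limit HORVU2Hr1G114070, HORVU3Hr1G078390 and HORVU1Hr1G089510, and 3 libraries a group limit all p-values.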

Other observations

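By chromosome, the share of tested genes that were higher under LN at an unadjusted p under 0.05 in edgeR's test ranged from 2.24% on 4H to 3.27% on 1H, and the share that were lower from 2.33% on 4H to 3.62% on 7H. The total reads of 4 of the 6 GP libraries, and of 7 of the 18 libraries, end in the same 4 digits.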
